A study of Mus musculus with 8 samples.

Results

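The Hox genes of the mouse colon were followed here across cell types: all genes of the deposited matrix whose symbol is Hox, a cluster letter from a to d and a number. There were 40 such entries among 31053 genes, 11 in cluster a, 10 in b, 9 in c and 10 in d. They stand for 39 symbols, since Hoxd4 is listed under 2 identifiers that held 1 and 3 UMIs (unique molecular identifiers, a UMI standing for 1 transcript caught). In all cells together the Hox genes held 59404 UMIs. Of the 40 entries, 9 held 1000 UMIs or more, 7 held fewer than 10, and Hoxc12 held 0.

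Hox genes encode transcription factors that bind DNA through a homeodomain. They sit in 4 clusters, and their order along a cluster parallels the order of their domains along the head-to-tail axis of the embryo, with low-numbered genes expressed from more anterior levels and high-numbered genes posteriorly. In the adult gut, epithelium and mesenchyme both keep such a positional code, and the colon is known for its posterior members, Hoxb13 of the hindgut epithelium among them. Paralogue groups 1 to 3 are called anterior here, 4 to 8 central and 9 to 13 posterior.

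The tissue was distal colonic mucosa, taken from 8 mice at 8 weeks of age, stripped of its muscle layers, depleted of dead cells by an antibody against annexin V and profiled from transcript 3′ ends in droplets on 1 day. Mice 2, 3, 6 and 7, labelled KO, carried Spry2-f/f with a Cre under Villin, a promoter used in the epithelium of the intestine. Mice 1, 4, 5 and 8, labelled WT, were Spry2-f/f littermates with no Cre, so the floxed gene is common to all 8. Spry2, which encodes an inhibitor of receptor tyrosine kinase signalling, stood in epithelial sums at 10.4, 13.3, 15.7 and 49.3 CPM (UMIs of the gene in 1000000 UMIs of the set) in KO-labelled mice 2, 3, 6 and 7. It stood at 11.2, 17.6, 27.7 and 37.6 CPM in WT-labelled mice 1, 4, 5 and 8. The groups overlapped (log2 difference -0.12 ± 0.35, SE, edgeR adjusted p = 0.99993), and whether the counted 3′ end lies in the deleted part is unknown here, so this gene does not check the labels.

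The matrix held 53080 cells with 500 to 113660 UMIs each, and 17.04 to 37.3 M (mega) UMIs per mouse. With the 1316 cells that the authors named doublets left out, there were 23787 epithelial cells (median 1743 UMIs), 7077 stromal cells (3873), 20134 lymphoid cells (2071), 724 myeloid cells and 42 glial cells. A barcode found in more than 1 mouse was carried by 719 cells. The share of epithelial cells with 50% or more mitochondrial UMIs was 78.8, 79.6, 69.0, 53.5, 37.2, 18.5, 13.6 and 11.1% in mice 1 to 8. The stroma of mouse 8 held 248 cells, of which 164 carried the authors' subtype CD90-pos, Igfbp3 and 21 the subtype CD90-pos. The cell classes are the authors' own, made from the same transcripts that are compared here.

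Epithelial and stromal cells carried different Hox genes, with Hoxb13 on the epithelial side and Hoxb2 on the stromal side furthest apart. Of 16 Hox genes with enough counts to test, 8 were higher in epithelial than in stromal cells of the same mice and 5 were lower. Over all 12057 genes tested, 78.7% differed between these cells, 39.6% higher and 39.1% lower in the epithelium, so that a difference as such is common here. The median log2 difference was 0.31 over the tested Hox genes and 0.01 over all genes. The sign of the Hox median depended on the genes that passed the filter and on scaling: it was -1.50 over 39 Hox genes with no filter, -0.39 over 32 by DESeq2 and -0.32 without scaling factors, where the median of all genes was 0.15, 0.03 and -0.63. Hoxb13, Hoxb9 and genes of cluster a were higher in the epithelium than in the stromal sums, of whose 7077 cells 6262 were fibroblasts. Without mouse 8, endothelial cells were also above fibroblasts in Hoxb9, Hoxa3, Hoxa5, Hoxa7 and Hoxa9. They were above fibroblasts by 1.25 (log2) in Hoxb13 and below them in Hoxa13. The stroma held Hoxb2, Hoxb4, Hoxb6, Hoxd8 and Hoxa11. Each comparison below is of 1 gene between cells, since the 3′ counts are not scaled per length and do not rank genes against each other.

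The 3 paralogues of group 13 that held more than a few UMIs (Hoxc13 held 3) are shown first, because their spread over the compartments differed. Hoxb13 was epithelial, while Hoxa13 and Hoxd13 were found on both sides. All 3 carry a homeobox, the stretch that encodes the DNA-binding domain. The homeobox is 180 bases long. In the coding transcripts of GENCODE M21, capitals mark the 76 positions that are not the same in all 3 genes, and lower case the 104 that are.
Hoxa13: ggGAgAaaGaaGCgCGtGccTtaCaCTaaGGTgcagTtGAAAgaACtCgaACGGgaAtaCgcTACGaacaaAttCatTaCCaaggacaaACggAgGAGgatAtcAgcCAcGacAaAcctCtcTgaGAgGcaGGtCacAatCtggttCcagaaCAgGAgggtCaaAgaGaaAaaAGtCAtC
Hoxb13: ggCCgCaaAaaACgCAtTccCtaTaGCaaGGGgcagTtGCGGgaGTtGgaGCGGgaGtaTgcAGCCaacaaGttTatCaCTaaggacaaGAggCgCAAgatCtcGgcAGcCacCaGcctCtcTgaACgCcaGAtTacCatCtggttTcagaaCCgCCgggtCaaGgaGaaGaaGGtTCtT
Hoxd13: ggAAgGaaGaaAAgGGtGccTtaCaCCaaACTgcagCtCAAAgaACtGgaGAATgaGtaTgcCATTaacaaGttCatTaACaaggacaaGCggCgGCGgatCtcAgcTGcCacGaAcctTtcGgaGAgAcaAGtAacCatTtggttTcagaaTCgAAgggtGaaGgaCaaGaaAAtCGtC
Hoxa13 and Hoxd13 were identical at 73.9% of the bases, Hoxa13 and Hoxb13 at 68.9%, and Hoxb13 and Hoxd13 at 67.2%. The median over the 741 pairs of 39 Hox homeoboxes was 61.1%.

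Hoxb13 (ENSMUSG00000049604, chr11:96194316-96197447, plus strand, GRCm38) was the Hox gene with most UMIs, 25390 of the 59404. Its level in epithelial sums was 177, 135, 185, 213, 239, 351, 473 and 405 CPM in mice 1 to 8. In stromal sums it ranged from 1.38 to 13.1 CPM with a median of 5.405. Every epithelial value lay above every stromal value (log2 difference 6.20 ± 0.26, SE, n = 8 mice, edgeR quasi-likelihood test, adjusted p = 3.02e-10). The epithelial level was higher in mice 6 to 8 than in mice 1 to 5, the mice with more mitochondrial cells, and whether these move together for a shared reason was not tested. With mitochondrial genes left out of the totals, the mean epithelial level was 396 ± 95.8 CPM in place of 272 ± 122 (SD, n = 8).

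Detection of Hoxb13 per cell followed its level. With each cell thinned to 1000 UMIs, 18.6 ± 8.57% of epithelial cells held a Hoxb13 UMI (SD, n = 8; 37.8 ± 19.6% unthinned). The stromal share was 0.65 ± 0.49% (2.03 ± 0.97% unthinned), and the lymphoid share, in cells of a lineage that is not known to express it, was 1.08 ± 0.82%. Both shares were far below the epithelial one. Summed epithelial markers stood in the stroma at 1.79% of their epithelial level and Hoxb13 at 2.57%. In lymphoid cells these values were 4.44 and 4.72%. What part of the stromal and lymphoid Hoxb13 is carried over from epithelial cells was not tested.

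Hoxb9 (chr11:96271457-96276595), a posterior gene of the same cluster, ranged from 21.0 to 54.2 CPM in epithelial sums with a median of 39.3, and from 0 to 3.75 CPM in stromal sums. The groups did not overlap (log2 difference 4.89 ± 0.26, adjusted p = 2.56e-09). The other 3 genes of cluster b that were tested, Hoxb2, Hoxb4 and Hoxb6, were lower in epithelium, as given below.

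**Figure D1:**
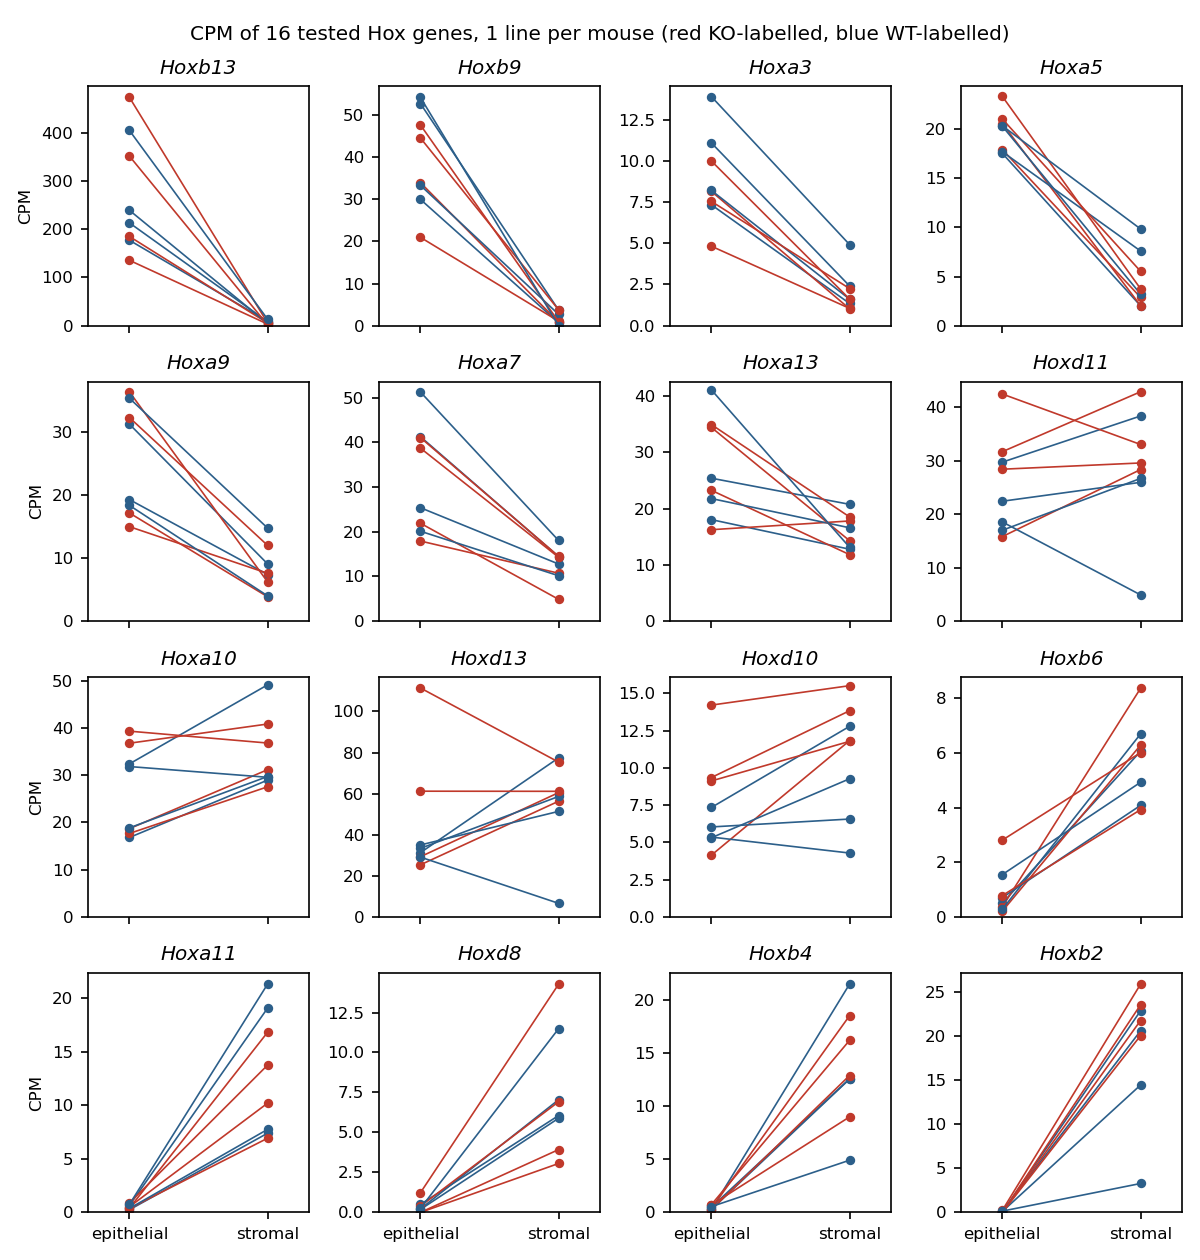
CPM (linear vertical axes, each panel with its own range) of the 16 tested Hox genes in epithelial and stromal sums, with 1 line joining both values of each of 8 mice (red KO-labelled, blue WT-labelled). Hoxb13 lies at 135 to 473 CPM in epithelium and 1.38 to 13.1 CPM in stroma, and Hoxb2 at 3.28 to 25.9 CPM in stroma.

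In cluster a, Hoxa3, Hoxa5, Hoxa7, Hoxa9 and Hoxa13 were higher in epithelium. Hoxa5, a central member, ranged from 17.5 to 23.3 CPM in epithelium (median 20.3) and from 2.02 to 9.85 CPM in stroma (median 3.48), with no overlap (log2 difference 2.87 ± 0.28, adjusted p = 1.12e-06). Hoxa9 ranged from 15.0 to 36.4 CPM (median 25.3) against 3.87 to 14.8 (median 7.50), also with no overlap (2.36 ± 0.16, adjusted p = 2.88e-08). Hoxa3, an anterior member, ranged from 4.82 to 13.9 CPM (median 8.19) against 1.02 to 4.92 (median 1.61). Its groups overlapped at their edges, while the epithelial value was the higher in 8 of 8 mice (2.87 ± 0.21, adjusted p = 5.75e-08). Hoxa7 ranged from 17.9 to 51.3 CPM against 4.89 to 18.1 CPM, a slight overlap, and was higher in the epithelium of 8 of 8 mice (1.98 ± 0.13, adjusted p = 2.41e-08).

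Hoxa13 (chr6:52257694-52260880, minus strand), the posterior end of cluster a, was shared by both compartments. It ranged from 16.3 to 41.1 CPM in epithelium (median 24.3) and from 11.8 to 20.8 CPM in stroma (median 15.4). The ranges overlapped, the epithelial value was the higher in 7 of 8 mice, and the log2 difference was 1.31 ± 0.14 (adjusted p = 2.04e-06). Hoxa11 (chr6:52242106-52245810), its neighbour in the cluster, was mostly stromal: 6.93 to 21.3 CPM there (median 11.99) and 0.249 to 0.878 CPM in epithelium. Its log2 difference was -4.03 ± 0.23 (adjusted p = 4.58e-09), lower in the epithelium of 8 of 8 mice.

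The 250 bases before the start of these neighbours are shown because the genes lie side by side and yet differ in where they are found. Both are from RefSeq (GRCm38.p6), minus strand, 5′ to 3′, with each CG dinucleotide in capitals; the Hoxa11 stretch is chr6:52245811-52246060 and the Hoxa13 stretch chr6:52260881-52261130.
Hoxa11: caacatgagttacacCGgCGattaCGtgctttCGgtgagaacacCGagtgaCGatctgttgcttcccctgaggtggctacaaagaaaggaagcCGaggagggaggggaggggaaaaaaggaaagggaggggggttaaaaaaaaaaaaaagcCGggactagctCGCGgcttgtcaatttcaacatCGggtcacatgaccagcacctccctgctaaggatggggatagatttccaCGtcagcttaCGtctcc
Hoxa13: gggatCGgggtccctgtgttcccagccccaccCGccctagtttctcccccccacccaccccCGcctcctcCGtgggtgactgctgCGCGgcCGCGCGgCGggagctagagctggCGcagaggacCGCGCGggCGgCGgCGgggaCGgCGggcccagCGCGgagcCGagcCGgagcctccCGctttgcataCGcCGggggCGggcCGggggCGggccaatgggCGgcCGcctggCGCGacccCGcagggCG
The stretch before Hoxa13 holds 35 CG dinucleotides and that before Hoxa11 holds 13. Over windows of 300 bases (250 before and 50 after the start), the median was 14.5 CG in the 24 Hox promoters found for 22 of the genes and 7 in all 32851 promoters. The letters CAATAAA, searched on both strands, were in 8.33% of the Hox promoters and 4.6% of all, and TATAAA in 16.7 and 13.6%. These are descriptions of the letters and carry no reading of the levels.

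The anterior and central genes of cluster b that were tested lay on the stromal side. Hoxb2 (chr11:96350525-96354012, plus strand), an anterior member, ranged from 3.28 to 25.9 CPM in stromal sums with a median of 21.2, against 0 to 0.243 CPM in epithelial sums. It was lower in the epithelium of 8 of 8 mice (log2 difference -6.71 ± 0.37, adjusted p = 3.49e-09). The thinned share of cells with a Hoxb2 UMI was 1.92 ± 0.69% in stroma (6.72% unthinned) and 0.0068% in epithelium. Hoxb4, a central member, ranged from 4.92 to 21.5 CPM in stroma (median 12.8) and stood at 0.45 ± 0.20 CPM in epithelium (SD, n = 8; -4.15 ± 0.27, adjusted p = 1.97e-08). Hoxb6, the third of these, ranged from 3.92 to 8.36 CPM in stroma and stood at 0.90 ± 0.88 CPM in epithelium (-2.30 ± 0.34, adjusted p = 5.11e-05).

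In cluster d, Hoxd8 was the tested gene that was lower in epithelium. Hoxd8 (chr2:74704615-74707933, plus strand), a central gene, ranged from 3.06 to 14.3 CPM in stroma (median 6.49) and from 0 to 1.23 CPM in epithelium, with no overlap (log2 difference -4.03 ± 0.34, adjusted p = 2.34e-07). With no filter, Hoxd9 was lower as well (-2.14 ± 0.30, adjusted p = 4.80e-06) and Hoxd12 higher (3.67 ± 0.54, adjusted p = 9.87e-06). The posterior genes Hoxd10, Hoxd11 and Hoxd13 were present on both sides. Hoxd13 (chr2:74668310-74671599) ranged from 25.3 to 111 CPM in epithelium (median 32.3) and from 6.56 to 77.4 CPM in stroma (median 59.6). The lowest stromal value was that of mouse 8, with the others at 51.3 CPM or more, and the difference of 0.18 ± 0.19 missed the threshold (adjusted p = 0.390). The thinned shares of cells with a Hoxd13 UMI were 3.42 ± 2.31% in epithelium, 5.27 ± 2.06% in stroma and 0.11% in lymphoid cells.

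Hoxd11 ranged from 15.8 to 42.5 CPM in epithelium and 4.92 to 42.9 in stroma, the ranges overlapping almost whole. Its log2 difference was 0.43 ± 0.18 (adjusted p = 0.0488), while its plain CPM was the higher in the stroma of 6 of 8 mice. This call was lost without any one of mice 1, 2, 4, 7 or 8, and the sign turned to -0.20 when library totals were used without TMM scaling factors. Hoxd10 (0.11 ± 0.19, adjusted p = 0.624) and Hoxa10 (0.20 ± 0.09, adjusted p = 0.0648) missed the threshold. Hoxa10 ranged from 16.8 to 39.3 CPM in epithelium and 27.5 to 49.1 in stroma.

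The scaling matters for genes with small differences. Without scaling factors 2610 of all genes were higher in epithelium and 6904 lower, against 4775 and 4713 with them, and the median of all genes moved to -0.63. Among the Hox genes that gave 7 higher and 7 lower, and Hoxa10, Hoxd10, Hoxd11 and Hoxd13 then had negative differences. The filter on low counts also left many stromal genes untested. Without mouse 8, whose stroma was the smallest, 20 Hox genes could be tested, 7 were higher and 9 lower in epithelium (of 12233 genes, 4634 higher and 5010 lower), Hoxb3 (-4.43 ± 0.29), Hoxb5 (-3.29 ± 0.38), Hoxb7 (-3.65 ± 0.35) and Hoxd9 (-2.26 ± 0.28) among them. DESeq2 called 12 of 32 Hox genes higher and 12 lower, where of 16269 genes 5931 were higher and 5755 lower. With no filter edgeR called 12 of 39 higher and 15 lower, where of 22330 genes 6144 were higher and 5934 lower.

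**Figure D2:**
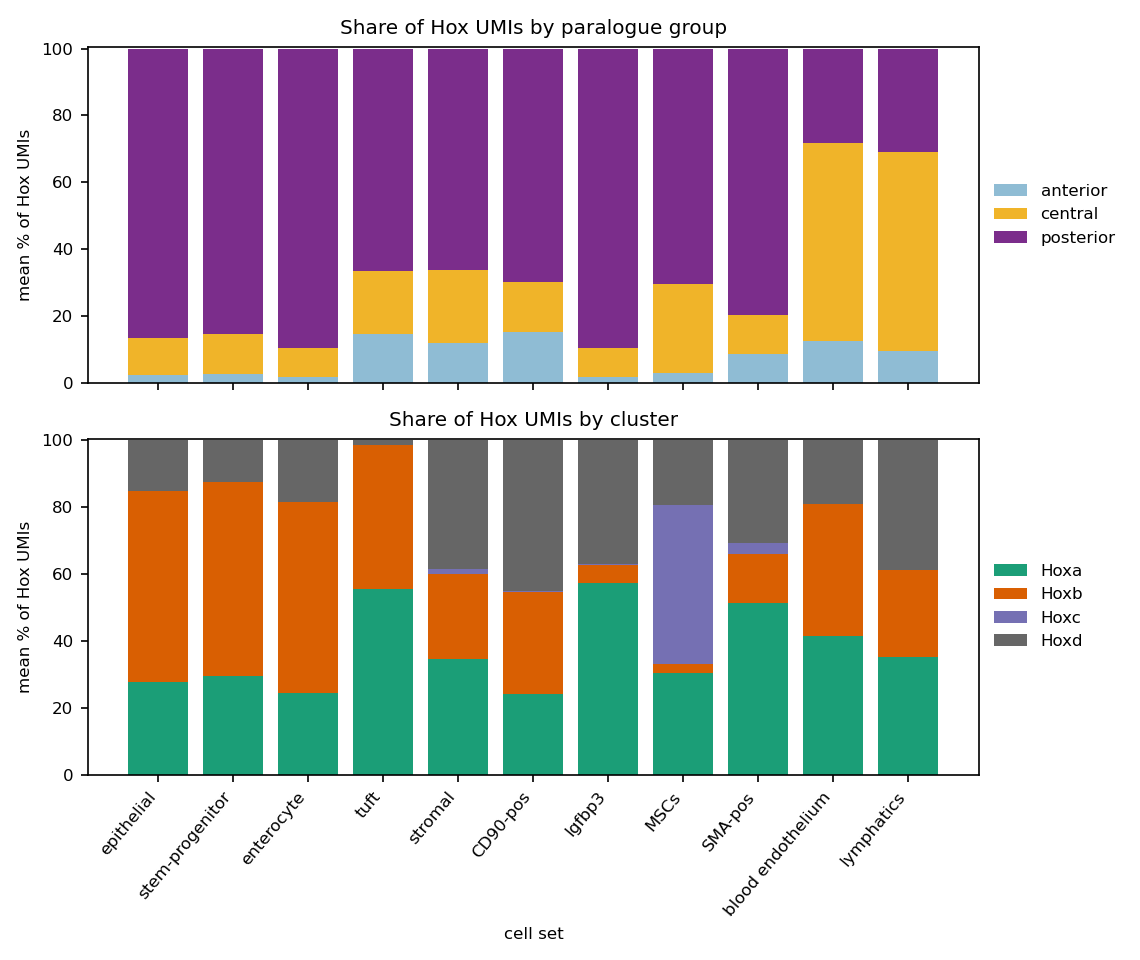
Stacked bars of the mean share of Hox UMIs, in percent over mice, held by anterior, central and posterior genes (above) and by clusters a to d (below) in 11 cell sets. Posterior genes hold 86.6% in epithelial and 66.2% in stromal sums, and cluster c is large only in the cells labelled MSCs (47.8%).

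Summed over the family, epithelial cells held 542 ± 201 Hox CPM, stromal cells 277 ± 52.8 and lymphoid cells 26.8 ± 15.1 (SD, n = 8). Posterior genes made up 86.6 ± 2.12% of the epithelial and 66.2 ± 3.61% of the stromal Hox UMIs. Anterior genes made up 2.28 ± 0.55 and 12.05 ± 3.54%. By cluster, b held 57.1% in epithelium and 25.4% in stroma, and d held 15.2 and 38.4%. Of the 31646 cluster b UMIs outside doublets in all cells together, 25249 were of Hoxb13. The epithelial sum and the epithelial shares of posterior genes and of cluster b therefore rest in large part on this gene. They were not counted without it. These shares compare sums of 3′ counts within a cell set and are a description with no test.

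The stroma was not uniform, and its endothelial cells held mainly central and its fibroblasts mainly posterior Hox UMIs. In the endothelium (blood vessel and lymphatic cells joined, 622 cells of mice 2 to 8) central genes held 58.9 ± 4.75% of the Hox UMIs and posterior genes 30.9 ± 4.38%, while in fibroblasts posterior genes held 72.8 ± 8.72%. The markers followed the authors' names: Pecam1 stood at 1445 CPM in blood vessel cells, 636 in lymphatic cells and 1.49 in fibroblasts, and Lyve1 at 4321 CPM in lymphatic and 17.5 in blood vessel cells. Jchain, a plasma cell marker, stood at 3696 ± 6597 CPM in the blood vessel cells (SD, n = 6), and its part in the Hox values was not tested.

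The 3 Hox genes that could be tested between endothelial cells and fibroblasts all differed, where 52.5% of 6612 genes did (25.7% higher and 26.8% lower). Hoxa7 ranged from 63.5 to 107 CPM in endothelial cells (median 68.4) and from 3.15 to 10.3 in fibroblasts (log2 difference 3.31 ± 0.22, n = 7 mice, adjusted p = 2.43e-09). Hoxd8 ranged from 33.0 to 81.3 CPM (median 56.8) against 0 to 4.20 CPM (4.54 ± 0.30, adjusted p = 3.25e-09). Neither gene's groups overlapped. Hoxa10 went the other way, from 4.02 to 22.0 CPM in endothelial cells and 27.9 to 51.2 in fibroblasts (-1.67 ± 0.25, adjusted p = 3.65e-05). The endothelial range of Hoxa7 also lay above its epithelial range given earlier.

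Only these 3 passed the filter on low counts. Without mouse 8, whose fibroblasts numbered 188, 20 Hox genes could be tested, of which 11 were higher and 5 lower in endothelial cells, where of 10308 genes 2151 were higher and 2426 lower. The higher ones included Hoxd9 (4.29 ± 0.29), Hoxb9 (4.97 ± 0.53), both posterior, Hoxb7 (3.57 ± 0.42) and Hoxa5 (3.35 ± 0.47). The lower ones were all posterior: Hoxa10 (-1.68 ± 0.27), Hoxa11 (-4.80 ± 0.71), Hoxa13 (-3.63 ± 0.55), Hoxd11 (-2.74 ± 0.38) and Hoxd13 (-4.28 ± 0.38). Hoxd13 stood at 3.12 ± 4.60 CPM in endothelial cells (SD, n = 7) and 57.9 ± 24.4 in fibroblasts of the same mice. The posterior genes were thus split, these 5 being lower in endothelial cells, and the endothelium held 129 of the 193 stromal Hoxd8 UMIs.

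Lymphatic and blood vessel cells could be compared in 6 mice with 20 or more of each. Of the Hox genes only Hoxa7 passed the filter, and it missed the threshold (log2 difference 0.27 ± 0.29, adjusted p = 0.511), where 36.4% of 2607 genes differed, 17.2% higher and 19.2% lower in lymphatic cells. With edgeR 0 Hox genes were therefore called, and 0 had an unadjusted p under 0.05. DESeq2, which tested 12, called 1 higher and 1 lower, where of 8303 genes 480 were higher and 605 lower. Without the filter, Hoxd9 was higher in lymphatic cells (2.14 ± 0.41, adjusted p = 4.33e-06) and Hoxb9 lower (-4.23 ± 0.69, adjusted p = 2.64e-08). Hoxd9 ranged from 15.0 to 95.04 CPM in lymphatic cells (median 82.5) and 0 to 48.2 in blood vessel cells (median 0). Hoxb9 ranged from 0 to 10.6 CPM (median 0) against 0 to 75.0 (median 44.3).

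**Figure D3:**
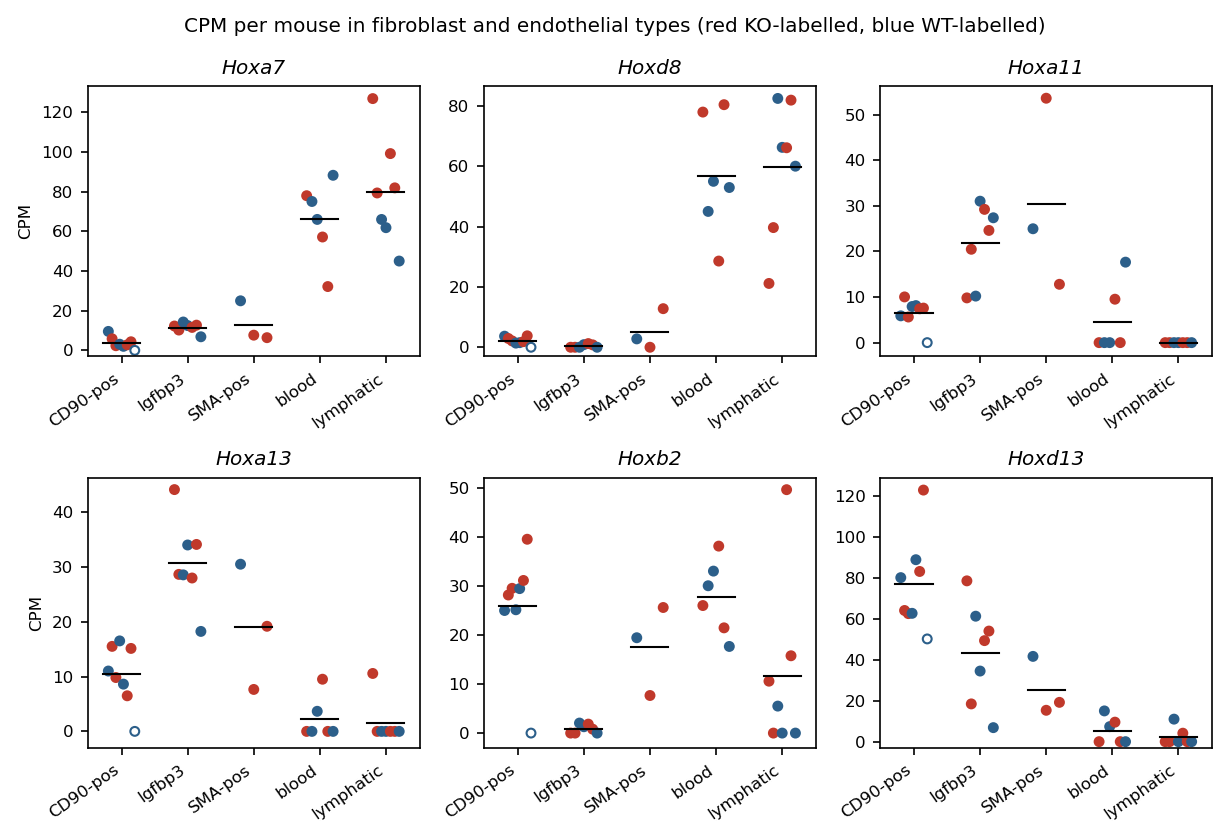
CPM of Hox genes in stromal types, 1 point per mouse with 20 or more cells of the type (red KO-labelled, blue WT-labelled; the open circle is mouse 8 with 21 CD90-pos cells; the black line is the mean over the mice plotted). The vertical axes are linear. Hoxd13 is at 50.1 to 123 CPM in CD90-pos fibroblasts, where 50.1 CPM is 1 UMI in mouse 8, and Hoxa7 at 45.0 to 127 CPM in lymphatic cells.

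Among fibroblasts, the subtypes that the authors named CD90-pos and CD90-pos, Igfbp3 held different clusters. In Igfbp3 fibroblasts cluster a held 57.3% of the Hox UMIs and cluster b 5.44%. In CD90-pos fibroblasts these shares were 24.2 and 30.6%, with 45.1% in cluster d. Of 8 Hox genes tested in 7 mice, 5 were higher in Igfbp3 fibroblasts and 1 lower, where 31.6% of 9588 genes differed (16.4% higher, 15.2% lower). All 5 that were higher belong to cluster a.

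Hoxa13 ranged from 18.3 to 44.1 CPM in Igfbp3 fibroblasts (median 28.7) and from 0 to 16.5 in CD90-pos fibroblasts (median 10.4). No mouse's Igfbp3 value fell within the other range (log2 difference 1.497 ± 0.18, adjusted p = 1.12e-07). Hoxa11 ranged from 9.81 to 31.0 CPM against 0 to 10.0 (1.51 ± 0.22, adjusted p = 3.52e-06), with a slight overlap. Hoxa7 had medians of 12.3 and 2.94 CPM (1.88 ± 0.27, adjusted p = 2.30e-06), Hoxa9 of 9.13 and 3.56 (1.62 ± 0.31, adjusted p = 0.000148) and Hoxa10 of 46.9 and 28.7 (0.79 ± 0.14, adjusted p = 6.14e-05). Hoxd13 was the one that was lower, at 6.84 to 78.5 CPM (median 49.3) against 50.1 to 123 (median 72.0). It was higher in CD90-pos fibroblasts in 6 of 7 mice (-0.87 ± 0.16, adjusted p = 8.18e-05). The CD90-pos sum of mouse 8 held 21 cells and 8 Hox UMIs, and 1 UMI in it is worth 50.1 CPM. The CD90-pos values of that mouse therefore rest on very few UMIs. These calls were kept without mouse 8.

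Among fibroblasts, the anterior and central genes of cluster b lay in the CD90-pos subtype; blood vessel cells held Hoxb2 as well, at 17.6 to 38.1 CPM (6 mice). Hoxb2 was at 25.0 to 39.5 CPM in the CD90-pos cells of mice 1 to 7 and at 0 in mouse 8, where 1 UMI in 21 cells is worth 50.1 CPM. In Igfbp3 fibroblasts it was at 0 to 2.04 CPM. Without mouse 8, 5 of 12 Hox genes tested were lower in Igfbp3 fibroblasts (of 9879 genes, 1630 were): Hoxd13 (-0.86 ± 0.17), Hoxb2 (-4.64 ± 0.29), Hoxb3 (-4.21 ± 0.42), Hoxb4 (-3.26 ± 0.33) and Hoxb6 (-4.29 ± 0.57). DESeq2 and edgeR with no filter each called 7 lower, where 1199 of 13669 and 1866 of 18276 genes were. In bulk sums of a compartment, fewer CD90-pos cells and less Hoxb2 RNA per cell cannot be told apart, and the stromal sum of mouse 8 gave the lowest Hoxb2, Hoxb4 and Hoxd13 levels of the 8.

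Smooth muscle actin-positive myofibroblasts, named SMA-pos by the authors, had 20 or more cells in mice 5, 6 and 7. Against CD90-pos fibroblasts of these mice, 3 of 10 Hox genes tested were higher and 1 lower, where 29.3% of 8873 genes differed (14.1% higher, 15.2% lower). Hoxa9 stood at 11.1, 38.3 and 25.6 CPM in myofibroblasts (log2 difference 2.65 ± 0.65, n = 3, adjusted p = 0.00110). Hoxa10 stood at 61.0, 84.2 and 51.2 CPM (1.02 ± 0.31, adjusted p = 0.00778), and Hoxa11 at 25.0, 53.6 and 12.8 CPM (1.78 ± 0.51, adjusted p = 0.00514). Hoxd13 stood at 41.6, 15.3 and 19.2 CPM, below the 88.8, 83.1 and 123 CPM of CD90-pos fibroblasts (-1.76 ± 0.32, adjusted p = 1.00e-05). The calls of Hoxa10 and Hoxa11 were lost without mouse 5 and without mouse 6, leaving 1 gene higher, as DESeq2 also gave. Of all genes, 682 of 8716 and 1173 of 9113 were higher without these mice, and 870 of 11849 by DESeq2.

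**Figure D4:**
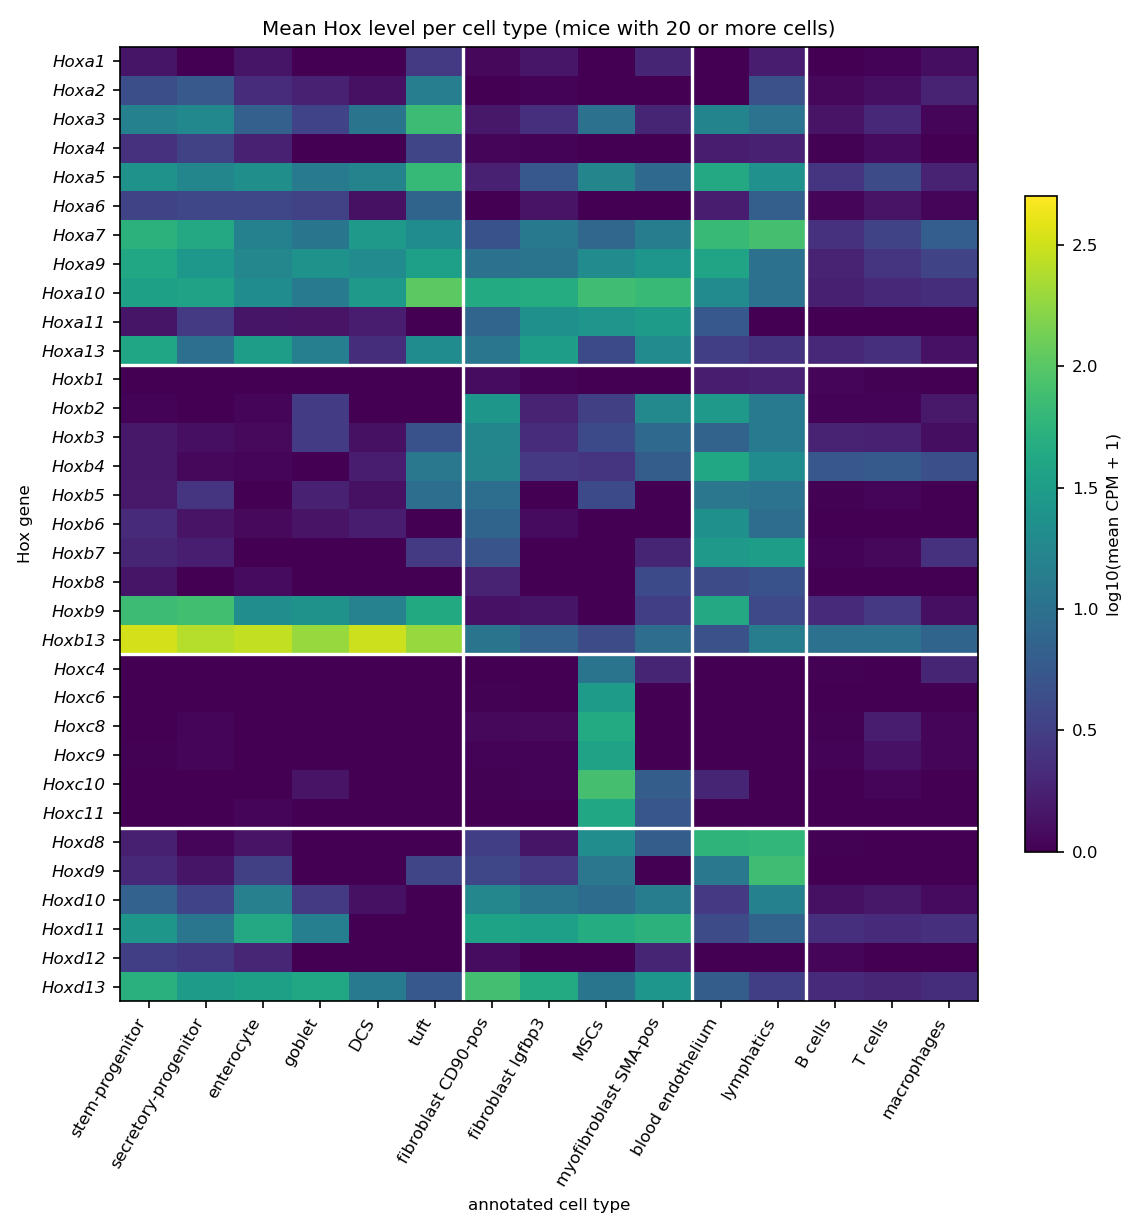
Mean CPM of the Hox genes with 10 or more UMIs in 15 cell types, as log10(mean CPM + 1), with genes ordered along the clusters and types by compartment; the labels DCS and MSCs are the authors'. Hoxb13 is high in the epithelial types, Hoxa7 in endothelial types and in stem-progenitor cells, and most cluster c genes in the cells labelled MSCs.

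The genes of cluster c were all but absent from the tissue, with 194 UMIs outside doublets, and 123 of these (63.4%) lay in the 116 fibroblasts that the authors labelled MSCs. This type and its genes were chosen after their values were seen, and no test was made. It had 20 or more cells in mice 2, 5 and 7, with 31, 20 and 52. In these mice Hoxc10 stood at 81.4, 98.9 and 58.1 CPM, Hoxc8 at 54.3, 27.0 and 48.4, and Hoxc9 at 33.9, 36.0 and 33.9. Cluster c held 47.8 ± 6.59% of their Hox UMIs (SD, n = 3). Hoxd13, the leading cluster d gene of other fibroblasts, stood at only 6.78, 8.99 and 14.5 CPM in them.

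Epithelial subtypes were named by the authors in WT-labelled mice alone (6502 of 13229 cells), so the subtypes were compared in mice 1, 4, 5 and 8. Of 11 Hox genes tested, 4 were higher in stem-progenitor cells than in enterocytes and 3 lower, where 68.1% of 9674 genes differed (36.4% higher, 31.8% lower). Hoxb9 stood at 73.3, 68.8, 75.6 and 60.8 CPM in stem-progenitor cells and at 27.5, 18.2, 17.4 and 17.8 CPM in enterocytes, with no overlap (log2 difference 1.18 ± 0.15, n = 4, adjusted p = 1.84e-05). Hoxa7 stood at 60.6, 36.1, 58.6 and 60.3 CPM against 19.2, 9.98, 18.6 and 9.81 (1.28 ± 0.20, adjusted p = 8.61e-05). These 2 genes were thus higher in stem-progenitor cells than in enterocytes in every mouse.

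Hoxd10 and Hoxd11, posterior genes of cluster d, went the other way. Hoxd10 stood at 8.08, 5.21, 5.51 and 5.25 CPM in stem-progenitor cells and 17.9, 8.94, 10.3 and 18.7 in enterocytes (-1.85 ± 0.23, adjusted p = 1.04e-05). Hoxd11 stood at 35.2, 31.6, 19.8 and 17.3 CPM against 58.2, 29.2, 25.3 and 52.3 (-1.31 ± 0.20, adjusted p = 7.05e-05), with overlap. Hoxb13 (-0.25, adjusted p = 0.139), Hoxa13 (-0.40, adjusted p = 0.0779), Hoxa10 (0.09) and Hoxd13 (-0.06) missed the threshold. Without mouse 8, Hoxa13 was called lower too (-0.68 ± 0.20, adjusted p = 0.00967), which made 4 lower. The calls of Hoxa3 (0.63 ± 0.23, adjusted p = 0.0292) and Hoxa9 (0.55 ± 0.16, adjusted p = 0.00890) were lost without mouse 1 and without mouse 8, which left 2 higher. The call of Hoxa3 was also lost without mouse 5, which left 3 higher. That of Hoxa5 (-0.51 ± 0.19, adjusted p = 0.0289) was lost without mice 1, 4 or 5. Without scaling factors, under which the median of all genes moved to 0.73, 5799 genes were higher and 1347 lower against 3517 and 3073 with them. Of the Hox genes 7 were then higher and 2 lower, and Hoxa5 had a difference of 0.13.

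Secretory types of the epithelium are given as values, chosen after they were seen. In the cells labelled DCS, Hoxb13 stood at 366, 394, 274 and 196 CPM in mice 1, 4, 5 and 8, while Hoxd11 was at 0 in all 4. Hoxa13 was at 0, 0, 0 and 5.10 CPM there. These sums held only 73692, 86202, 91206 and 784700 UMIs, of which 32, 44, 45 and 251 were of Hox genes. A 0 in mice 1, 4 and 5 therefore does not show that a gene is absent. In tuft cells, chemosensory cells counted in mice 5 and 8, Hoxa3 stood at 70.4 and 68.3 CPM, Hoxa5 at 54.2 and 72.1, and Hoxa10 at 103 and 102. Hoxd13 stood at 5.42 and 3.80 CPM in tuft cells, where cluster a held 55.6% of the Hox UMIs and cluster d 1.3%. The tuft sums held 97 and 176 Hox UMIs in mice 5 and 8, so the low values rest on very few UMIs.

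Outside epithelium and stroma the Hox genes were low, with 1 exception in value. Lymphoid cells held Hoxb4 at 35.9% of its stromal level, while the summed fibroblast markers stood at 0.14% and Hoxb2 at 0.34% of theirs. Hoxb4 is known in blood cells for its role in haematopoietic progenitors. By subtype it ranged from 4.49 to 17.3 CPM in mature B cells (median 8.21) and from 6.16 to 54.0 CPM in Tregs, regulatory T cells (median 13.7, 7 mice). The Treg sums of these 7 mice held only 40 UMIs of all Hox genes together, so the Treg values rest on very few UMIs per mouse. Mature B cells held 1044. In epithelium, the fibroblast marker sum stood at 0.27% of its stromal level, Hoxb2 at 0.84%, Hoxa11 at 4.26%, Hoxb4 at 4.33% and Hoxd8 at 3.86%. By these means all 4 genes were above the marker share. The median of Hoxb2 over mice, 0.22% (range 0 to 4.56%), was close to that of the marker sum, 0.21%. What part of the 4 genes is carried over from other cells was not tested.

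Genes that work with or beside the Hox genes were counted from lists, beside the 39.6% of all genes that were higher and the 39.1% that were lower in epithelium. Of 8 tested cofactor genes of the TALE class, which bind DNA together with Hox proteins, 0 were higher and 7 lower in epithelium than in stroma, with Meis2 at -8.07 and Meis1 at -6.00 on the log2 scale. The list's median was -2.34. Both ParaHox genes tested were higher in epithelium, Cdx1 by 6.48 and Cdx2 by 6.17; they encode regulators of intestinal identity. Of 8 chromatin regulators, Ezh2, a subunit of a repressive histone methyltransferase, was higher (1.29), and Kmt2a (-0.58), Bmi1 (-0.87) and Rnf2 (-0.73) were lower, 4 of 8 called where 78.7% of all genes were. Of 5 regional factors of the gut tested, 2 were higher, Gata6 (3.32) among them, and Foxf1 (-7.62), Foxf2 (-6.59) and Nkx2-3 (-7.15), known in gut mesenchyme, were lower.

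Of 4 non-coding genes of the Hox clusters tested, Hottip (3.99) and Hoxaas3 (3.91) were higher in epithelium and Hoxb3os (-5.40) lower. Hottip is transcribed from the Hoxa13 end of cluster a. Exons of 10 Hox genes overlap a gene on the opposite strand in GENCODE M21, and those of 9 overlap another gene on the same strand. Whether the counting used strand is not stated in the labels or headers. The values of Hoxb2 and Hoxb3 with Hoxb3os and of Hoxa7 with Hoxaas3 are therefore uncertain, since reads of such partners may be split between them. That of Hoxa11 is uncertain too. Its partner Hoxa11os is not among the genes of the matrix, so its reads may have been counted as Hoxa11.

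The series asks what changes when Spry2 is deleted in the epithelium. For the Hox genes, 0 of 14 tested in epithelial sums differed between KO-labelled and WT-labelled mice by edgeR, where 0% of 11723 genes did. None of the 14 had an unadjusted p under 0.05 (96 of all genes did), and DESeq2 called 0, with 1 under 0.05 unadjusted (157 of all genes). Hoxd13 stood at 29.3, 25.3, 61.2 and 111 CPM in KO-labelled mice 2, 3, 6 and 7 and at 31.2, 33.3, 34.99 and 29.1 CPM in WT-labelled mice 1, 4, 5 and 8. The groups overlapped, with mice 6 and 7 above the rest (log2 difference 0.68 ± 0.31, edgeR adjusted p = 0.99993). Hoxb13 was at 286 ± 155 CPM with the KO label and 258 ± 100.7 with the WT label (SD, n = 4 each; 0.10 ± 0.23).

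In stromal sums 0 of 18 Hox genes were called by edgeR, where 0% of 11542 genes were, and DESeq2 called 0 as well. At an unadjusted p under 0.05 there was 1 by edgeR and 2 by DESeq2 (231 and 237 of all genes). The former was Hoxd10, at 11.8, 11.8, 13.8 and 15.5 CPM in mice 2, 3, 6 and 7 and 12.8, 4.28, 9.27 and 6.56 CPM in mice 1, 4, 5 and 8, with overlap (0.73 ± 0.30, edgeR adjusted p = 0.99993). The epithelial-stromal difference itself was called different between labels for 0 of 16 Hox genes by edgeR (0% of 12057 genes; DESeq2 0). Here 1 Hox gene had an unadjusted p under 0.05 (383 of all genes did): Hoxb13, with a difference of 1.10 ± 0.42 between labels. Its stromal level was 3.83 CPM under the KO label and 8.59 under WT. The labels do not say how the mice fall into litters, and with 4 mice per label the tests cover only the spread between these mice.

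**Figure D5:**
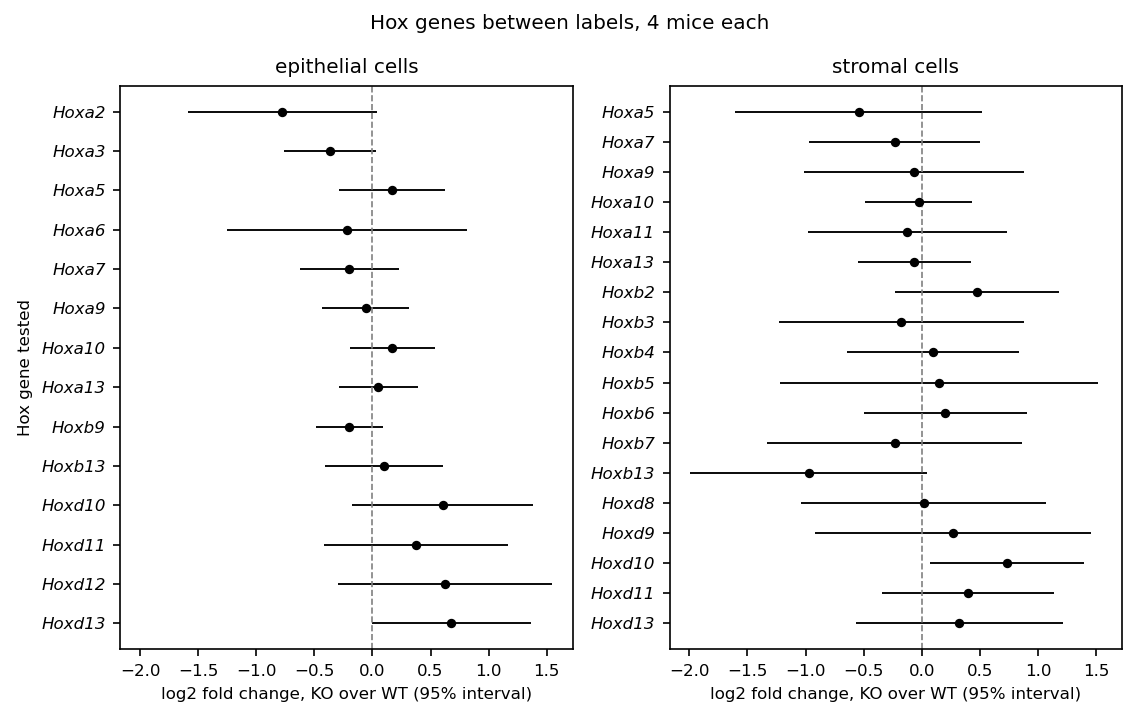
Log2 fold change of KO-labelled over WT-labelled mice (4 each) for the 14 Hox genes tested in epithelial and the 18 in stromal sums, as points with 95% intervals from edgeR that are not adjusted for the number of genes. The intervals reach 0 for all but Hoxd10 in stromal cells (0.07 to 1.39).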

How the data were processed

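Single cells of mouse distal colonic mucosa were sequenced from transcript 3′ ends on the 10x Chromium platform, all samples on 1 day, per the labels' protocols. Cell Ranger 3.0.2 and mm10 are named in the submitters' processing notes. The authors deposited a matrix of raw UMI counts and a cell table with mouse, class, subtype and a size factor. The size factor is a ratio that the authors deposited, the UMI total of a cell divided by the geometric mean over cells; it matched the matrix in file order for 16 cells and for all 53080 after sorting by mouse, then barcode (tolerance 1e-06). The deposited UMAP coordinates are a score and were not used.

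The mouse was the replicate. UMIs were summed per mouse and cell set without the authors' doublets, and CPM is plain UMIs in 1000000 of the set's total. Types needed 20 cells in a mouse. Sums were tested with edgeR 4.0.16 (TMM, filterByExpr, quasi-likelihood; mouse as block within mice) in R 4.3.3, with Benjamini-Hochberg adjustment over all genes tested at 0.05; log2 differences carry these TMM factors. DESeq2 1.42.0 was run beside it. The test was tried on simulated data. Detection was counted after thinning each cell to 1000 UMIs. Values are given for the 12 highest Hox genes in epithelial or stromal sums and for those called; others are named as chosen after seeing them. The Hox genes, lists and tests were chosen with earlier results of these data known. Positions and homeoboxes are from GENCODE M21 and promoters from RefSeq, GRCm38. Python 3.11.15 with pandas 2.3.3 served for the rest. Intervals of single shares were not used; UMI counting error is part of the spread between mice. Values of some genes of the related lists are not reported here.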

Additional observations from a re-analysis of the deposited data

Results flagged for a closer look

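In 48 groups of 4 mice (a Hox gene in epithelial or stromal sums of 1 label) the highest or lowest mouse was compared with its nearest neighbour by Dixon's ratio, and 1 stood apart. Hoxa10 in stromal cells was at 49.12 CPM in WT-labelled mouse 5, with the other WT-labelled mice at 28.94 to 29.71 CPM. Chance alone marks about 1 in 20 such groups.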

How the results depend on the processing

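For 40 pairs of a gene and a comparison, 528 values under alternatives were computed: 488 kept direction and side of the threshold, 27 fell below it, 1 rose above it and 12 changed sign. The causes were not tested beyond what each alternative's construction shows. Counts of Hox genes by setting follow, with those over all genes tested. Lower in epithelium: 12 by DESeq2, 15 with no filter, 9 in mice 1 to 4 alone (chosen after seeing the data, as were the fits without scaling factors) and 5 to 9 without 1 mouse, the 9 without mouse 8. Over all genes these were 5755 of 16269, 5934 of 22330, 4945 of 12466 and 4542 to 5010 of 11968 to 12370. Higher in epithelium: 12 by DESeq2, 12 with no filter and 7 to 9 without 1 mouse. Over all genes these were 5931, 6144 and 4482 to 4697. Endothelial against fibroblasts: 11, 15 and 2 to 11 higher and 5, 5 and 1 to 5 lower by DESeq2, with no filter and without 1 mouse. Over all genes 2302, 2421 and 1483 to 2151 were higher. Lower were 2357, 3320 and 1626 to 2426, of 13454, 18972 and 6478 to 10308 tested. Myofibroblasts: 1 higher by DESeq2, 1 to 3 without 1 mouse, and 3 lower with no filter. Over all genes these were 870 of 11849, 682 to 1173 of 8716 to 9113, and 1692 of 16264. Igfbp3 fibroblasts: 7 lower by DESeq2, 7 with no filter and 1 to 5 without 1 mouse. Over all genes these were 1199 of 13669, 1866 of 18276 and 1121 to 1630 of 9178 to 9879. Lymphatic cells: 1 higher and 1 lower by DESeq2 and with no filter, and 0 to 1 higher without 1 mouse. Over all genes DESeq2 gave 480 higher and 605 lower of 8303, and no filter gave 934 and 848 of 14986. Without 1 mouse 273 to 500 were higher, of 1551 to 3300. Stem-progenitor cells: 2 higher by DESeq2, 7 without scaling factors and 2 to 4 without 1 mouse. Over all genes these were 3299 of 13097, 5799 of 9674 and 3106 to 3331 of 9458 to 9893.

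Signs turned between epithelium and stroma without scaling factors for Hoxa10 (-0.44), Hoxd10 (-0.53), Hoxd11 (-0.20) and Hoxd13 (-0.45). Hoxd10 also turned in mice 5 to 8 (-0.13), without mouse 2 (-0.031; -0.031 to 0.23 without 1 mouse) or 4 (-0.0029), in epithelial cells with under 50% mitochondrial UMIs (-0.0028) and at equal cell numbers (-0.017), and Hoxd13 in mice 1 to 4 (-0.12). Hoxa5 in stem-progenitor cells turned to 0.13 without scaling factors, and Hoxb13 between labels in epithelium to -0.090 without mouse 7 (-0.090 to 0.25 without 1 mouse). Without mitochondrial genes the epithelial Hoxb13 level was 396 CPM. Thinned to 2000 UMIs, Hoxb13 was found in 32.2% and Hoxd13 in 7.32% of epithelial cells; at 500 and 2000 UMIs Hoxd13 was found in 2.62 and 10.1% and Hoxb2 in 0.933 and 3.57% of stromal cells. No paired analysis was possible because KO-labelled and WT-labelled mice share no replicate numbers; comparisons within mice already carry the mouse as a block. Depth limits the small types: 1 UMI in the 21 CD90-pos cells of mouse 8 is 50.1 CPM.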
